A study of Mus musculus with 3 samples.

Results

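Genes of matrix proteases and of the plasminogen activation system were followed in bone marrow derived macrophages (BMDMs) exposed to lipoproteins of the Lyme disease spirochete. The group holds 9 of the 32285 genes in the count matrices, taken by their symbols: the matrix metalloproteinases *Mmp12*, *Mmp13*, *Mmp14* and *Mmp19*, the membrane proteases *Adam8* and *Adam17*, the plasminogen activator *Plau*, its receptor *Plaur*, and the metalloproteinase inhibitor *Timp2*. All 9 were detected in every library and passed the minimum of 10 CPM (UMIs per 1000000 UMIs) in the higher library of each comparison. They were taken by name, as genes of tissue damage that are of interest in Lyme arthritis, with earlier results of these data known.

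BMDMs are macrophages grown in culture from marrow cells, here from pooled marrow of female C3H/HeN mice aged 6 to 8 weeks, cultured with L929 conditioned medium. The authors' methods give an age of 6 weeks, and for the sequencing name BMDMs of 3 mice that were treated separately and then pooled. UI cells received PBS and no lipoprotein, while LP1 and LP4 cells received 1 µg/mL of borrelial lipoproteins (BbLP) for 1 hour and for 4 hours. Each condition is 1 library that pools the cells of 3 wells, and UI cells were collected at the later time. With no untreated library at 1 hour, LP1 and UI differ both in lipoprotein and in collection time, which cannot be told apart. No condition has a replicate, so no test between conditions was possible, and every interval given covers counting error only.

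Matrix metalloproteinases are zinc enzymes that cut collagens, elastin and other proteins of the extracellular matrix, most of them secreted as inactive precursors. Urokinase, the product of *Plau*, binds its receptor on the cell surface and turns plasminogen into plasmin, a protease that degrades fibrin and activates several metalloproteinases. TIMP proteins block metalloproteinases and serpins block plasminogen activators, so what these enzymes do in a tissue depends on both sides. RNA levels say nothing of precursor activation or of secretion.

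The limits on UMIs, genes and mitochondrial share left 6071 UI, 5065 LP1 and 4670 LP4 cells, with 35688939, 52475723 and 61402275 UMIs. These cells were 99.2% of the barcodes of UI, 98.9% of LP1 and 92.7% of LP4, so the limits removed a larger share of LP4. The median cell held 5133 UMIs in UI, 9343 in LP1 and 11784 in LP4, so levels are given as CPM of the UMIs summed over cells, and more RNA per cell cannot be told apart from deeper capture. All 10 macrophage markers were detected in each library, with summed levels of 11666.5, 11875 and 10804 CPM in UI, LP1 and LP4. The summed level of 10 stromal markers was 6.98, 7.85 and 23.9 CPM (9 of 10 detected in UI, where *Lum* had no UMI, and 10 in LP1 and LP4), and that of 10 neutrophil markers was 373, 277 and 522 CPM. Of 4 T or NK cell markers, *Cd3e* and *Trbc2* had no UMI in any library.

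After 4 hours of BbLP the group split. *Mmp13* and *Mmp14* were at least 2-fold higher in LP4 than in UI, *Plau* and *Plaur* were at least 2-fold lower, and the other 5 genes stayed within 2-fold. In the same comparison 10.6% of 8019 genes with at least 10 CPM were higher by at least 2-fold and 9.91% were lower. Moves past 2-fold were thus frequent at that time, and the share of all genes past larger folds was not taken. After 1 hour none of the 9 genes passed 2-fold in either direction, where 0.697% of 7747 genes were higher and 0.465% were lower. Between 1 and 4 hours the same 2 genes were higher and the same 2 lower under CPM (*Mmp19* also passed 2-fold under the alternatives named with it), against 8.75% of 7956 genes higher and 7.55% lower. This comparison shares the LP4 library with the comparison of LP4 and UI. The median log2 ratio of the 9 genes was -0.08 for LP1 over UI, 0.62 for LP4 over UI and 0.13 for LP4 over LP1, where the medians of all genes were -0.02, -0.07 and -0.06.

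**Figure D1:**
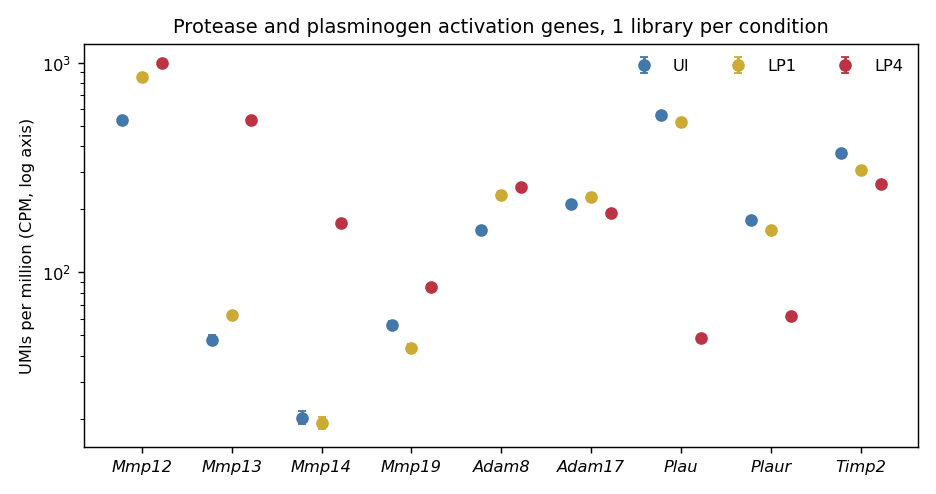
Level of each gene in the UI, LP1 and LP4 libraries, in CPM on a log axis, with exact Poisson intervals at 95% that are mostly smaller than the points. *Mmp13* (47.7, 62.8 and 535 CPM) and *Mmp14* (20.3, 19.1 and 171 CPM) stand high only in LP4 among the 3 libraries, and *Plau* (566, 522 and 48.5 CPM) stands low only there.

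*Mmp13* encodes collagenase 3, which cuts fibrillar collagens, type II collagen of cartilage among them. It had 1702 UMIs in UI, 3298 in LP1 and 32859 in LP4, or 47.7 (45.5 to 50.01), 62.8 (60.7 to 65.0) and 535 (529 to 541) CPM with exact Poisson intervals. LP4 was 11.2-fold higher than UI, a log2 ratio of 3.49 with an exact conditional binomial interval of 3.42 to 3.56. Most of that difference lay between 1 and 4 hours: the log2 ratio was 0.40 (0.31 to 0.48) for LP1 over UI and 3.09 (3.04 to 3.14) for LP4 over LP1.

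*Mmp14* encodes a metalloproteinase anchored in the cell membrane, which cuts collagen at the cell surface and activates the precursor of MMP2. Its 723 UMIs in UI, 1004 in LP1 and 10519 in LP4 were 20.3, 19.1 and 171 CPM. UI and LP1 did not differ beyond counting error, with a log2 ratio of -0.08 (-0.22 to 0.06). LP4 was 8.46-fold higher than UI, a log2 ratio of 3.08 (2.97 to 3.19). *Mmp2*, whose precursor the MMP14 protein activates, had 5, 7 and 19 UMIs in UI, LP1 and LP4, under 1 CPM in each.

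The stromal marker genes listed above also stood highest in LP4, and stromal cells are known to make collagenases and TIMPs. A cluster of 64 stromal-like cells, described below, held 1.59% of the *Mmp13* UMIs and 0.437% of the *Mmp14* UMIs of LP4. Without it, the log2 ratios of LP4 over UI were 3.48 and 3.08, and with all kept cells 3.49 and 3.08. Leaving out these cells does not take away free RNA in other cells, and a stromal source was not tested. A finer clustering named only 13 cells stromal-like, so these values hold for the 64 cells only.

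*Mmp12* encodes the elastase of macrophages. It was measured at 536 (528 to 544), 854 (846 to 862) and 998 (990 to 1006) CPM in UI, LP1 and LP4, from 19125, 44818 and 61265 UMIs. LP1 lay 0.67 (0.65 to 0.70) above UI on the log2 scale and LP4 a further 0.22 (0.21 to 0.24) above LP1. Over all cells, most of the difference was thus present in LP1, where for *Mmp13* most of it lay between LP1 and LP4. The log2 ratio of LP4 over UI was 0.90 (0.87 to 0.92), a 1.86-fold difference that fell short of 2-fold under CPM and passed it with TMM scaling (1.07) and with median of ratios scaling (1.10).

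*Mmp19* encodes a secreted metalloproteinase that cuts basement membrane proteins. Its levels were 55.9, 43.8 and 85.6 CPM in UI, LP1 and LP4, so LP1 was the lowest library and LP4 the highest. The log2 ratios to UI were -0.35 (-0.44 to -0.26) for LP1 and 0.62 (0.54 to 0.69) for LP4. LP4 lay 1.95-fold above LP1, a log2 ratio of 0.97, which passed 2-fold with TMM scaling (1.06), with median of ratios scaling (1.10) and as a mean over cells of each cell's share (1.16).

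*Mmp12* and *Mmp13* lie in 1 cluster of 10 metalloproteinase genes on chromosome 9, from 7272514 to 7699585 in GRCm38, while *Mmp14* lies on chromosome 14 and *Mmp19* on chromosome 10. *Mmp8*, a collagenase of the same cluster best known from neutrophils, was steady at 174, 174 and 184 CPM. The neutrophil-like cells of the culture held 0.217% of its UMIs. *Mmp1b* overlaps the end of *Mmp12* by 1261 bases on the opposite strand and had 1, 9 and 2 UMIs. *Mmp3* had 1 UMI in all, in LP4, *Mmp7* had none, *Mmp20* had 2 UMIs, both in LP4, and *Mmp10* and *Mmp27* stayed under 10 CPM. Of the genes of this cluster with at least 10 CPM, *Mmp13* was thus the only one past 2-fold in LP4 over UI under CPM, and *Mmp12* passed it under the other scalings named above.

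The 250 bases before the transcription start of *Mmp13*, *Mmp14* and *Plaur*, which are the genes past 2-fold with a promoter entry in RefSeq, are printed from GRCm38.p6 on the strand of each gene. Of the 9 genes, 7 had an entry; *Plau* and *Mmp19* did not. Capitals mark the AP-1 element TGAGTCA, which factors of the Fos and Jun families bind, and the PEA3 or ETS element AGGAAG, both searched on either strand.
Mmp13, chr9:7272264-7272513: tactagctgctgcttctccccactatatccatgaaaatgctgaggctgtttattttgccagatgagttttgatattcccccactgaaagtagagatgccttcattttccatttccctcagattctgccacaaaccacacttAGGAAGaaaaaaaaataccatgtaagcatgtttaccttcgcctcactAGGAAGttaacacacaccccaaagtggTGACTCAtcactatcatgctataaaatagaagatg
Mmp14, chr14:54431348-54431597: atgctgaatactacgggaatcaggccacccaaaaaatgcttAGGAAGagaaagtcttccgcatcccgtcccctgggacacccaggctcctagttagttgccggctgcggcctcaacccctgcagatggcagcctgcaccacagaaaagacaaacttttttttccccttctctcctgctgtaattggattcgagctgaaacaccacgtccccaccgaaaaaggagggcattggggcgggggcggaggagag
Plaur, chr7:24462233-24462482: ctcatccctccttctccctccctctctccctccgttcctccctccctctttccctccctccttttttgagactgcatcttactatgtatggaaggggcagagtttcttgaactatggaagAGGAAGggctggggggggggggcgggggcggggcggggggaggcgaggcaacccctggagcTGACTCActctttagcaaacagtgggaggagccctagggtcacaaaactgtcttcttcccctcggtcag
The AP-1 letters stood 35 to 29 bases before the start of *Mmp13* and 69 to 63 bases before that of *Plaur*, both times as the reverse complement TGACTCA. They also stood 44 to 38 bases before the second annotated start of *Mmp12*, and in no other window of the 7 genes. AP-1 letters occurred in 4.46% of 32851 RefSeq promoter windows of this length. AGGAAG was met 2 times before *Mmp13*, 1 time before *Mmp14* and 1 time before *Plaur*, and it occurred in 29.5% of all windows. *Mmp13* and *Plaur* thus share both elements and differed in opposite directions in LP4. TATAAA stood 16 to 11 bases before the *Mmp13* start, as in 12.4% of all windows, and the letters of an interferon-stimulated response element stood 146 to 137 bases before it, as in 2.98%. The letters of a C/EBP element (TTGCNNAA) stood 59 to 52 bases before *Plaur*, 39 to 32 before the first start of *Mmp12* and 219 to 212 before *Adam8*. They occurred in 9.56% of all windows. The letters of CRE (TGACGTCA), NF-kB and STAT (TTCNNNGAA) elements were not in the windows of the 7 genes, and 1.55%, 1.41% and 7.02% of all windows held them. A match is a description of the letters only.

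*Adam8* and *Adam17* belong to the ADAM family of membrane-bound proteases, which cut other membrane proteins near the cell surface. *Adam8* was measured at 159, 233 and 255 CPM in UI, LP1 and LP4. As for *Mmp12*, most of the difference over all cells was present in LP1. The log2 ratios to UI were 0.55 (0.51 to 0.60) in LP1 and 0.68 (0.64 to 0.72) in LP4. *Adam17* encodes the enzyme that releases TNF from the cell membrane, and it was nearly level, at 211, 230 and 192 CPM. The log2 ratio of LP4 over UI was -0.14 (-0.18 to -0.10) under CPM but 0.030 with TMM and 0.067 with median of ratios scaling, so no direction is given. Counted per cell, *Adam17* had 1.24, 2.38 and 2.52 UMIs in UI, LP1 and LP4.

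*Plau* showed the largest fall in CPM among the 9 genes. It had 20183 UMIs in UI, 27385 in LP1 and 2979 in LP4, which were 566 (558 to 573), 522 (516 to 528) and 48.5 (46.8 to 50.3) CPM. LP1 lay close to UI, with a log2 ratio of -0.12 (-0.14 to -0.09). LP4 was 11.7-fold lower than UI, a log2 ratio of -3.54 (-3.60 to -3.49), and its UMIs were fewer in LP4 even before any scaling to depth.

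*Plaur* was lower in the same library, by a smaller amount. Its levels were 177, 160 and 62.0 CPM in UI, LP1 and LP4, from 6311, 8392 and 3807 UMIs. The log2 ratio was -0.15 (-0.19 to -0.10) for LP1 over UI and -1.51 (-1.57 to -1.45), or 2.85-fold lower, for LP4 over UI. Enzyme and receptor transcripts of the urokinase system were thus both lower after 4 hours, and both within 1.5-fold of UI after 1 hour.

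*Timp2* encodes an inhibitor that also takes part in the activation of MMP2 by MMP14. It was measured at 369, 309 and 265 CPM, with log2 ratios to UI of -0.26 (-0.29 to -0.23) in LP1 and -0.48 (-0.51 to -0.45) in LP4. Per cell its UMIs were 2.17, 3.20 and 3.49, so that a cell of LP4 yielded more *Timp2* UMIs than a cell of UI, out of a larger total.

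The inhibitors outside the 9 genes were read from lists of related genes. *Timp1*, the other TIMP that macrophages are known to make, was the only other metalloproteinase inhibitor of 5 to reach 10 CPM. It had 467, 951 and 11262 UMIs, or 13.1, 18.1 and 183 CPM, a log2 ratio of 3.81 (3.68 to 3.95) for LP4 over UI. *Timp1* was thus higher in LP4 together with *Mmp13* and *Mmp14*, and *Timp2* was not. The stromal-like cells held 5.78% of the *Timp1* UMIs of UI and 1.94% of those of LP4.

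Of 11 other plasminogen activation genes, 6 reached 10 CPM. Where 10.6% of all genes were higher by 2-fold in LP4 over UI and 9.91% lower, 1 of these 6 was higher and none lower. This was *Serpinb2*, which encodes PAI-2, an inhibitor of urokinase. It was measured at 20.2, 24.1 and 168 CPM in UI, LP1 and LP4, a log2 ratio of 3.05 (2.94 to 3.16) for LP4 over UI. Lower transcripts of the activator and its receptor and a higher level of *Serpinb2* were therefore found in the same library. *Plg*, which encodes plasminogen, had no UMI in any library, where 3 counts would be 0.0841 CPM in UI, 0.0572 in LP1 and 0.0489 in LP4. Annexin A2 and S100A10 form a plasminogen receptor. *Anxa2* was level at 559, 534 and 558 CPM, and *S100a10* was measured at 367, 448 and 604 CPM.

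**Figure D2:**
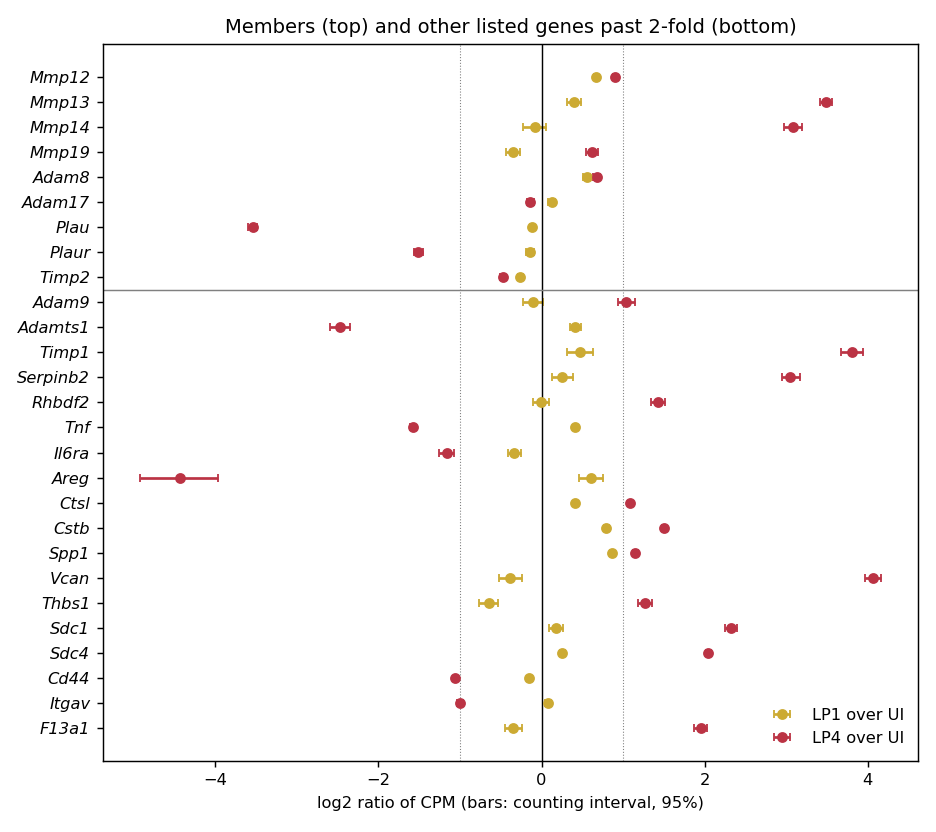
Log2 ratio of CPM for LP1 over UI and LP4 over UI, with exact conditional binomial intervals at 95%, for the 9 genes (above the line) and the genes of the related lists past 2-fold in any of the 3 comparisons (below it). The dotted lines mark 2-fold. LP1 ratios lie within 2-fold for every gene shown, and LP4 ratios reach from -4.43 (*Areg*) to 4.07 (*Vcan*).

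Among the listed genes, the 2 other metalloproteinases with at least 10 CPM, *Mmp8* and *Mmp9*, stayed within 2-fold in each comparison. *Mmp9*, the gelatinase B gene, was measured at 21.0, 25.5 and 20.0 CPM. Of 20 other ADAM and ADAMTS genes, 5 reached 10 CPM. By 2-fold in LP4 over UI, 1 was higher and 1 lower, against 10.6% and 9.91% of all genes. *Adam9* was measured at 26.3, 24.4 and 53.9 CPM, and *Adamts1*, a secreted protease that cuts proteoglycans, at 66.4, 88.6 and 12.0 CPM. The aggrecanase genes *Adamts4* and *Adamts5* stayed under 10 CPM, at 137 and 76 UMIs in LP4 against 1 and 3 in UI. Both are named outside the rule for listed genes, and these UMIs are not scaled to the greater depth of LP4.

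Among partners and substrates of ADAM17, 4 genes passed 2-fold in LP4 over UI, which *Adam17* did not. *Rhbdf2* encodes iRhom2, which carries ADAM17 to the cell surface in macrophages, and it was measured at 40.3, 40.0 and 109 CPM, the only gene past 2-fold of the 7 partners and convertases with at least 10 CPM. Of 8 substrate genes with at least 10 CPM, 3 were at least 2-fold lower in LP4 than in UI and none higher. Over all 8019 genes, 9.91% were lower and 10.6% higher. The median log2 ratio of the 8 was -0.88, and that of all 8019 genes was -0.07. *Tnf* was measured at 840, 1119 and 280 CPM and *Il6ra* at 60.2, 47.8 and 26.8 CPM. The log2 ratio of *Il6ra* for LP4 over UI was -1.17, and it fell within 2-fold with TMM (-0.997) and median of ratios scaling (-0.96). *Areg*, a growth factor of the EGF family, had 514, 1151 and 41 UMIs, which were 14.4, 21.9 and 0.668 CPM. *Tnfrsf1b*, a TNF receptor gene, went the other way, at 511, 493 and 891 CPM, with a log2 ratio of 0.80 that passed 2-fold with median of ratios scaling (1.01).

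Of 8 cathepsin and cystatin genes with at least 10 CPM, 2 were at least 2-fold higher in LP4 than in UI. Of all genes at that minimum, 10.6% were higher. *Ctsl*, a lysosomal cysteine protease, was measured at 4454, 5898 and 9483 CPM, and *Cstb*, an inhibitor of such proteases, at 366, 635 and 1037 CPM. *Ctsk*, a collagen-degrading cathepsin best known from osteoclasts, was measured at 86.7, 100.2 and 129 CPM.

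The 12 matrix molecules and matrix receptors held 6 genes higher and 1 lower by 2-fold in LP4 over UI, with a median log2 ratio of 0.61. *Vcan*, the proteoglycan versican, had the largest positive log2 ratio of LP4 over UI among the listed genes with at least 10 CPM, at 22.4, 17.2 and 375 CPM, a log2 ratio of 4.07 (3.96 to 4.17). Syndecans carry heparan sulfate on the cell surface, and *Sdc1* (44.6, 50.4 and 223 CPM) and *Sdc4* (329, 392 and 1357 CPM) were both higher in LP4. *Spp1*, which encodes osteopontin, was measured at 397, 722 and 882 CPM. *Thbs1* (37.3, 23.8 and 90.0 CPM) and *F13a1* (40.4, 31.8 and 156 CPM) were lowest in LP1. *Cd44*, a hyaluronan receptor, was lower in LP4, at 1713, 1539 and 822 CPM, with a log2 ratio to UI of -1.06 that fell within 2-fold with TMM (-0.89) and median of ratios scaling (-0.85). *Itgav*, an integrin chain, passed 2-fold only for LP4 over LP1, at 298, 315 and 149 CPM, and did not pass it with TMM (-0.98) or median of ratios scaling (-0.95). Over all the lists together, 12 genes were higher and 5 lower by 2-fold in LP4 over UI. These are out of the genes with at least 10 CPM whose numbers are given with each list above. In LP4 over LP1, 9 were higher and 4 lower, and none passed in LP1 over UI. Of all genes with at least 10 CPM, 10.6% were higher and 9.91% lower in LP4 over UI. The shares were 8.75% and 7.55% in LP4 over LP1, and 0.697% and 0.465% in LP1 over UI. The lists were chosen with earlier results of these data known. An excess of listed genes over these shares is therefore not read as a result.

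Shares of cells with a UMI were compared at a common depth of 2000 randomly drawn UMIs per cell, and 122 UI, 13 LP1 and 45 LP4 cells with fewer UMIs were not used. *Mmp13* was seen in 6.10% (5.51 to 6.74) of UI, 7.72% (6.998 to 8.49) of LP1 and 24.97% (23.7 to 26.2) of LP4 cells, with exact binomial intervals. *Mmp14* was seen in 4.08%, 3.94% and 27.8% of cells. The 2 genes that were higher in LP4 were thus seen in more of its cells, and still in a minority of them at this depth. *Plau* went from 52.1% of UI and 49.9% of LP1 cells to 8.22% (7.44 to 9.05) of LP4 cells. *Plaur* was seen in 29.6%, 25.7% and 11.1% of cells.

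For the genes with smaller differences in CPM, the shares also differed less. *Mmp12* was seen in 30.2%, 38.5% and 37.6% of UI, LP1 and LP4 cells, and *Adam8* in 24.1%, 33.0% and 35.8%. *Mmp19* was seen in 7.78%, 5.86% and 13.3%. *Adam17* was seen in 32.8%, 35.9% and 29.7%, and *Timp2* in 48.5%, 44.5% and 39.6%. Shares were higher in LP4 than in UI for 5 genes and lower for 4. *Adam17* is among the 4, and its direction in CPM depended on the scaling. The same count was not taken over all genes, so these numbers have no background beside them. Without thinning, the UI and LP4 shares were 11.6% and 40.4% for *Mmp13*, 9.75% and 66.2% for *Mmp14*, 70.2% and 29.6% for *Plau*, and 55.3% and 46.4% for *Plaur*. For *Adam17* (61.9% and 81.8%) and *Timp2* (76.1% and 85.4%) the unthinned shares put LP4 above UI, the reverse of the thinned ones.

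Free RNA gives UMIs in cells that do not make a transcript, so the shares in the neutrophil-like cells, another cell type of the culture, were read beside these. After thinning, 21 UI, 21 LP1 and 28 LP4 cells of that cluster remained, with median depths of 3947, 6261 and 9261.5 UMIs, against 5194, 9353 and 11838 over all thinned cells. *Mmp13* was seen in 0 of the 28 LP4 cells, which allows up to 12.3% by the exact binomial interval, *Mmp14* in 0 and *Mmp12* in 1 (3.57%, 0.0904 to 18.3). *Plau* and *Mmp14* were each seen in 1 of 21 UI cells (4.76%, 0.120 to 23.8). For *Mmp14* that is close to its share of 4.08% over all UI cells, so its UI share is not set above free RNA. *Adam8* was seen in 6 of the 28 LP4 cells, and in 0 of 21 cells in UI and in LP1. *Plaur* and *Adam17* are made by neutrophils too, and were seen in 10 and 5 of the 28 cells, so these cells give no background for them.

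**Figure D3:**
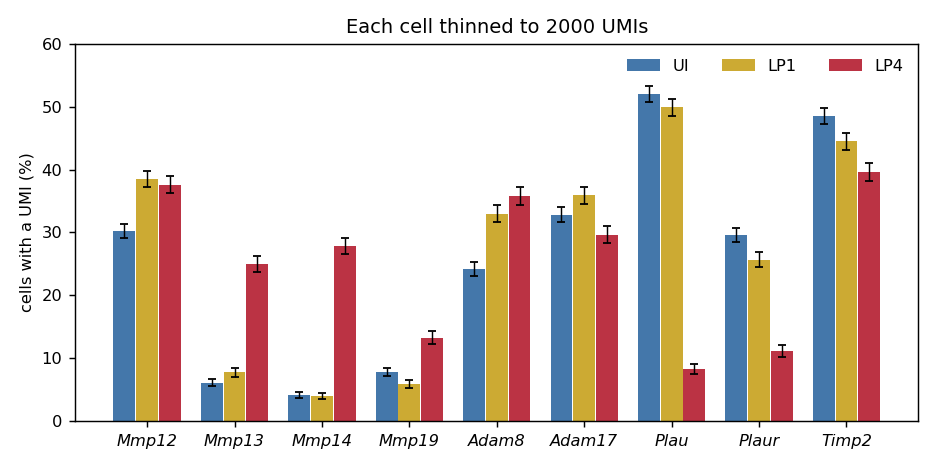
Share of cells with at least 1 UMI of each gene after thinning every cell to 2000 UMIs, in UI, LP1 and LP4, with exact binomial intervals at 95%. *Mmp13* and *Mmp14* reach 24.97% and 27.8% in LP4 from 6.10% and 4.08% in UI, and *Plau* stands at 8.22% in LP4 and 52.1% in UI.

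The genes differed in how evenly their UMIs lay over cells. The Fano factor, the variance over the mean of UMIs per thinned cell, is 1 for a Poisson spread of UMIs over cells. For *Mmp13* it was 1.97 in UI, 2.12 in LP1 and 8.89 in LP4, and for *Mmp12* 4.62, 5.63 and 7.19. The highest 10% of LP4 cells held 76.5% of the *Mmp13* UMIs and 62.7% of the *Mmp12* UMIs. In UI the highest 10% held 100% of the *Mmp13* UMIs and 65.8% of the *Mmp12* UMIs, so this share was not higher in LP4. It is large for sparse genes too, at 54.2% for *Mmp14* and 46.5% for *Adam17* in LP4. Single cells of LP4 had up to 232 *Mmp13* and 404 *Mmp12* UMIs before thinning. *Mmp14*, seen in about the same share of LP4 cells as *Mmp13*, had Fano factors of 1.14, 1.09 and 1.35. *Adam17* (1.09, 1.11 and 1.08), *Adam8* (1.17, 1.24 and 1.25), *Plaur* (1.17, 1.15 and 1.12) and *Timp2* (1.29, 1.18 and 1.19) also had values close to 1, and *Plau* went from 2.09 in UI to 1.24 in LP4 as its level was lower. A Fano factor grows with the mean, so values are best compared where means are alike.

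**Figure D4:**
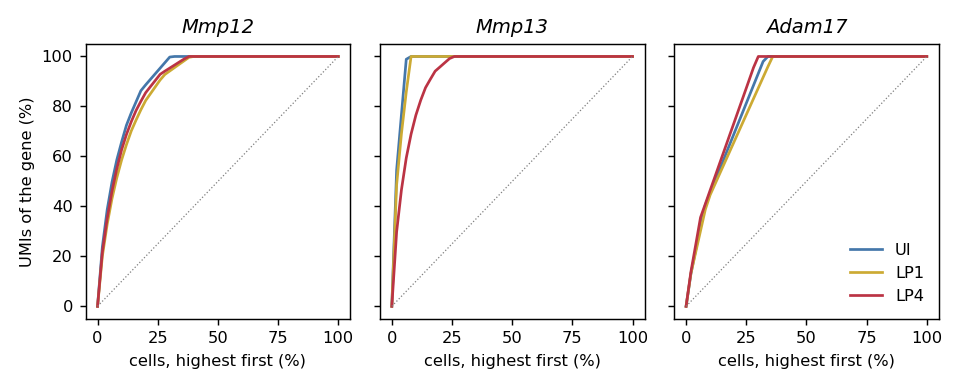
Cumulative share of the UMIs of *Mmp12*, *Mmp13* and *Adam17* (vertical axis, percent) held by cells ordered from highest to lowest (horizontal axis, percent of thinned cells) in UI, LP1 and LP4; the dotted line marks an equal share for every cell. The *Mmp13* curve of LP4 reaches 76.5% of UMIs at 10% of cells, and the *Mmp12* curve of LP4 62.7%. In UI these curves reach 100% and 65.8% there.

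Cells were clustered on genes that differed little between libraries, with the 9 genes and the listed genes left out, so that levels could be set side by side within clusters. Of 9 clusters, 7 had at least 50 cells in every library. Clusters A to E were macrophage-like, led by *Egr3*, *Nr4a3* and *Apoe* in A (4169 cells), *Fgf13* and *Ccnd1* in B (3920), *Hal* and *Atp2b4* in C (2932), *Fabp4* in D (1974), and *Mgll*, *Itgb3* and *Ctsk* in E (1392). Cluster F was cycling-like (1036 cells) and G dendritic cell-like (234). The name of G rests on the MHC class II pathway genes *H2-Eb1*, *H2-Ab1*, *H2-Aa* and *Cd74*. In G, 5 macrophage markers were each seen in most cells, as in D and E. The name therefore does not set G apart from macrophages rich in these genes. The remaining clusters were neutrophil-like (85 cells) and stromal-like (64), too few to compare by library.

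*Mmp13* was higher in LP4 than in UI in all 7 clusters, with log2 ratios from 2.65 in F to 4.51 in G. Its LP4 level was 1002 CPM in A and 996 in G, and 218 in E, which was the lowest of the 7. *Mmp14* was also higher in all 7, with ratios from 2.35 to 3.61, and in LP4 it likewise peaked in A (279 CPM) and was least abundant in E (57.2 CPM). *Mmp12* was lowest in A and highest in E of the 7 clusters. It was at 84.3 CPM in A and 3248 in E in LP4, and at 41.8 and 1625 CPM in the same clusters in UI. In clusters B to F the log2 step of *Mmp12* from UI to LP1 was larger than that from LP1 to LP4. In A (0.44 and 0.57) and G (0.05 and 0.46) it was the smaller of these steps. The cells of cluster E, which are rich in *Itgb3* and *Ctsk*, therefore held the most *Mmp12* and the least *Mmp13* and *Mmp14* in LP4. Cluster A held the least *Mmp12* and the most *Mmp14* there, and its *Mmp13* level was close to that of G. In UI, the *Mmp13* level of A (44.1 CPM) was not the highest, with 60.2 CPM in C and 11.1 in E. The dendritic cell-like cluster G was high in both *Mmp12* (1849 CPM) and *Mmp13* in LP4.

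*Mmp19* was the only metalloproteinase of the 4 without 1 direction in all clusters. In LP4 over UI it was higher in 4 and lower in 3 clusters. Of the lower ones, B (-0.09, -0.27 to 0.10) and G (-0.34, -0.89 to 0.22) did not differ from UI beyond counting error. In A it went from 29.4 CPM in UI to 135 in LP4, a log2 ratio of 2.20, and in E from 168 to 108 CPM, a log2 ratio of -0.64. The cluster with the most *Mmp19* was E in UI and A in LP4.

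*Plau* was lower in LP4 than in UI in all 7 clusters, with log2 ratios from -3.98 in A to -2.96 in E, and *Plaur* was lower in all 7, from -1.69 in B to -1.14 in E. In UI, *Plau* ranged from 296 CPM in G to 831 CPM in B. *Adam8* was higher in all 7 clusters, by as little as 0.01 in G and as much as 1.09 in A. In G the interval was -0.41 to 0.45, so no difference beyond counting error was seen there. Only in A was its step from LP1 to LP4 (0.67) larger than that from UI to LP1 (0.41). *Timp2* was lower in LP4 than in UI in all 7, from -0.55 in A to -0.17 in G, where the difference was within counting error (-0.59 to 0.26). *Adam17* was lower in 6 and higher in 1 for LP4 over UI under CPM. Its sign over all cells depended on the scaling, so no direction is given by cluster either. At a finer clustering with 9 clusters compared, *Mmp12* was lower in 2 of them, and the other 6 genes with 1 direction kept it. At that resolution 1 cluster was made mostly of LP4 cells (1109 of 1279), and the stromal-like cluster held 13 cells. The finer cluster led by *Egr3* and *Slc9a9* held 1634 UI, 1159 LP1 and only 128 LP4 cells. Ratios of LP4 over UI within the main cluster A, also led by *Egr3*, therefore need not compare like cells.

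The inhibitor genes had orders of their own in LP4. *Timp1* was at 258 CPM in the cycling-like cluster F and 84.3 in E. *Serpinb2* was at 369 CPM in A and 41.8 in E.

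**Figure D5:**
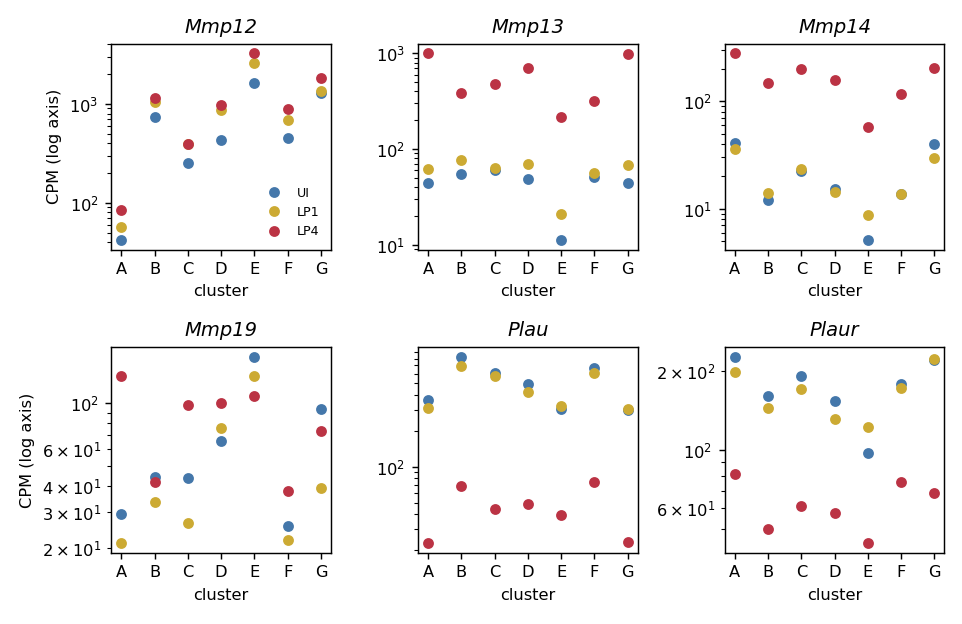
Level of 6 genes (CPM, log axis, scaled to each panel) in clusters A to G of the UI, LP1 and LP4 libraries, with 1 point for each cluster and library. *Mmp13* and *Mmp14* lie higher in LP4 and *Plau* and *Plaur* lower in LP4 in each cluster, *Mmp12* peaks in E (3248 CPM in LP4), and *Mmp19* has no 1 direction.

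Across the 4670 LP4 cells, genes were ranked by Pearson correlation with 5 of the genes on the log scale, out of 7215 genes seen in at least 10% of those cells. For *Mmp12* the closest were *Itgax* (r = 0.57), *Prdx1* (0.55) and *Hvcn1* (0.50). *Itgax* encodes the integrin chain CD11c, and its level was 81.9, 85.1 and 69.1 CPM in UI, LP1 and LP4. It thus had no difference like that of *Mmp12* between the libraries, and *Hvcn1*, at 108 CPM in UI and 109 in LP4, had none either. *Prdx1* did follow the order of *Mmp12*, at 1324, 2021 and 2334 CPM in UI, LP1 and LP4. For *Mmp14* the closest were *Sdc4* (0.28), *Selenop* (0.25) and *Aoah* (0.24), and for *Plaur* they were *Il1a* (0.22), *Cxcl2* (0.20) and *Il1b* (0.19). For *Mmp13* they were *F13a1* (0.17), *Gbp4* (0.15) and *Mapk6* (0.14), and for *Plau* they were *Lpl* (0.21), *Cd36* (0.17) and *Ccnd1* (0.17). Correlations under 0.3 are no finding in sparse counts. The cells share 1 library and differ in depth, so these values describe that library only.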

How the data were processed

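Single-cell RNA of 3 BMDM libraries was counted by the authors with Cell Ranger (7.1.0 per the submitters' processing notes) on the mouse mm10 reference. The deposited values are UMI counts per gene and barcode, not normalized, in barcodes called as cells. A barcode was used as a cell if it had over 500 UMIs from over 500 genes, of which mitochondrial UMIs made up under 5%. Shared between libraries were 10 barcode sequences (UI and LP1), 7 (UI and LP4) and 4 (LP1 and LP4). No doublet caller was run, and leaving out the 5% of cells with the most UMIs was an alternative.

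UMIs were summed over cells and scaled to CPM. Intervals at 95% were exact Poisson for CPM, exact conditional binomial for log2 ratios and exact binomial for shares. UMIs that came from 1 library are not independent samples of a condition, so intervals cover counting error only. A gene counted as past the fold when the libraries differed by 2-fold or more and the higher one reached 10 CPM. Besides the 9 genes, the listed genes past 2-fold in any comparison are named, and for 5 genes the 3 most correlated genes. The genes and lists were chosen with earlier results of these data known. The result for 1 gene of the lists is not reported here.

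For clustering, counts per 10000 were log-transformed, 2000 variable genes with less than 1.5 times between libraries were centred within library, and 30 principal components, 20 neighbours and Leiden at a resolution of 0.5 were used. Clusters were named from marker lists, by 3 markers among the leading genes or, for macrophages, 3 markers each seen in most cells. Random steps used a seed of 20. Promoter windows are from RefSeq and gene positions from GENCODE vM21, both on GRCm38. Tools were Python 3.11.15, scipy 1.17.1, scikit-learn 1.9.0, leidenalg 0.10.2 and edgeR 4.0.16 (TMM only). The ratio and thinning steps were tested on simulated data. Alternatives were other scalings, cell filters, folds, minimum levels, thinning depths and resolutions.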

Additional observations from a re-analysis of the deposited data

How the results depend on the processing

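With 1 library per condition, no interval includes the spread between cultures, and the alternatives below bear on processing alone. No paired analysis was possible because each condition has 1 library. Over 8 alternatives, the log2 ratio of LP4 over UI lay between 3.46 and 3.69 for *Mmp13*, 3.05 and 3.29 for *Mmp14*, -3.57 and -3.34 for *Plau*, -1.54 and -1.31 for *Plaur*, and 0.81 and 1.10 for *Mmp12*. Only *Adam17* changed direction among the 9 genes, from -0.14 to 0.030 with TMM and 0.067 with median of ratios scaling. These scalings moved the median of all genes for LP4 over UI from -0.07 to 0.10 and 0.13. With a 1.5-fold threshold, 1 of the 9 genes was higher in LP1 over UI in place of 0, and 5 in LP4 over UI in place of 2. Of the listed genes, at 1.5-fold 4 were higher and 2 lower in LP1 over UI in place of 0 and 0, 13 in place of 5 were lower in LP4 over UI, and 14 in place of 9 were higher and 8 in place of 4 lower in LP4 over LP1. With TMM or median of ratios scaling, 3 in place of 5 were lower in LP4 over UI, without *Il6ra* and *Cd44*. With a minimum of 1 CPM, the higher ones were 1, 20 and 16 in LP1 over UI, LP4 over UI and LP4 over LP1, in place of 0, 12 and 9. With no minimum they were 11, 32 and 30, and the lower ones 7, 12 and 8, and such genes have few UMIs. The share of all genes was taken only at 2-fold and 10 CPM. The counts at other folds and minimum levels therefore have no background beside them and are not read against those shares. Shares of cells with a UMI and Fano factors rest on 1 random draw of UMIs and moved with the thinning depth, and without thinning 2 in place of 4 genes had a lower share in LP4 than in UI. The comparison without the stromal-like cluster was chosen after seeing the data.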

Other observations

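Several genes of the metalloproteinase, ADAM and ADAMTS lists that stayed under 10 CPM had more UMIs in LP4 than the depth alone would give. *Mmp25*, which encodes a membrane-anchored metalloproteinase, had 27, 43 and 347 UMIs in UI, LP1 and LP4, a log2 ratio of 2.90 (2.33 to 3.52) for LP4 over UI. *Adamts4* had 1, 5 and 137 UMIs. *Adam22* went the other way, with 253, 292 and 75 UMIs and a log2 ratio of -2.54 (-2.93 to -2.16). These genes were picked after their values were seen, and the intervals cover counting error only.

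In the 22 stromal-like cells of LP4, *Mmp13* was at 1425.5 CPM and *Timp1* at 593 CPM, from 524 and 218 UMIs. In the 23 such cells of UI, *Mmp13* was at 72.9 CPM and *Timp1* at 179 CPM, from 11 and 27 UMIs. With so few cells (7 in LP4 and 3 in UI at the finer clustering), these are values of single clusters and not a comparison. *Mmp12* was at 166 CPM in the stromal-like cells of UI and at 1178 CPM in those of LP4. In this cluster 3 macrophage markers were each seen in most cells. The values are therefore not levels of stromal cells alone.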
